A study of Mus musculus with 2 samples.

Results

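The genes of chemokines, interleukins and their receptors were examined for methylated DNA in the livers of a Pemt-/- and a Pemt+/+ mouse. A gene belonged to the family if its symbol in the deposited region lists began with Ccl, Cxcl, Cx3c or Il and a digit, or was a Ccr or Cxcr symbol with a digit, and if it lay on one of the 19 autosomes. The rule found 98 of the 14480 genes named in the lists. They were sorted by symbol into 25 chemokine ligands, 14 chemokine receptors, 30 interleukin ligands and 29 interleukin receptors or binding proteins. Some symbols in the lists are old ones: Il8ra and Il8rb are now Cxcr1 and Cxcr2, Cxcr7 is Ackr3, and Il28a and Il28b are Ifnl2 and Ifnl3.

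Pemt encodes the liver enzyme that makes phosphatidylcholine from phosphatidylethanolamine, with S-adenosylmethionine as the methyl donor. Both male mice, 1 knockout (Pemt-/-) and 1 wild type (Pemt+/+), were given high fat-high sucrose (HFHS) chow between 5 and 25 weeks of age, and each gave 1 liver DNA library. According to the records the livers were taken at 25 weeks, while the Methods give other times beside the enrichment step, so the age is uncertain. The knockout is of the whole animal and the tissue is whole liver, in which a change in the mix of cells and a change of methylation within a cell cannot be told apart. With 1 library per genotype there were no replicates and no test between the genotypes, and every comparison is of these 2 mice.

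Chemokines are small secreted proteins that guide leukocytes along their gradients, and their receptors are G protein-coupled receptors on the cells that follow them. Interleukins are cytokines through which leukocytes and tissue cells signal to each other, mostly by receptors built of several chains that act through Jak and Stat proteins or, for the interleukin-1 and interleukin-17 families, through adaptors that lead to NF-kappaB. In liver, Kupffer cells, hepatocytes, endothelial cells and infiltrating leukocytes make and answer these signals, and many of the genes are silent in hepatocytes unless the tissue is inflamed. Methylation of cytosines in CG pairs at a promoter often goes with a silent gene, whereas methylation within genes and between them is common in any tissue.

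DNA bound by a methyl-CpG-binding protein was sequenced, and the authors listed the places where reads piled up as regions. The number of reads in a region is its tag count. A longer and a shorter list were given for each mouse. The longer lists held 97063 regions with 1582080 tags in Pemt-/- and 131279 regions with 2847831 tags in Pemt+/+, on the genome build mm9. A region was listed only from 8 tags upwards in Pemt-/- and 9 in Pemt+/+, so a gene without a region in one mouse was not listed there and cannot be taken as unmethylated. The Pemt+/+ lists hold more regions and more tags than the Pemt-/- lists over the whole genome, and in a single gene a genotype difference and a difference of the libraries cannot be told apart.

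A gene entered the family only if a list gave it a region within 10 kb of a transcript, so being listed is not a result. In Pemt-/- there were 188 regions at 85 genes, and in Pemt+/+ there were 258 regions at 94 genes. Of the 98 genes, 81 had a region in both mice, against 12473 of the 14073 autosomal genes listed in either mouse. Another 4 had one in Pemt-/- only, against a background of 2.45% of all autosomal genes listed in that mouse, and 13 in Pemt+/+ only, against 9.35%. The 4 genes were Il6, which encodes interleukin-6, Il12b, the subunit shared by interleukins 12 and 23, Il18bp, the secreted inhibitor of interleukin-18, and Il1f6, which encodes interleukin-36 alpha. The 13 genes were Ccl4, Ccl22, Ccl27a, Cxcl16, Ccr3, Cxcr4, Il1b, Il25, Il27, Il3ra, Il12rb1, Il18rap and Il27ra. Each of the 4 genes of Pemt-/- had a single region. Il6 had 8 tags in a region 7706 bp downstream, at chr5:30354214-30354541. Il18bp had 10 tags in a region 6712 bp upstream and inside the gene Rnf121, so it cannot be assigned to Il18bp alone. Il1f6 had 11 tags in a region 3080 bp downstream, and Il12b 13 in one inside the gene. The lowest count listed in that mouse was 8, and the median of the family's regions there was 12.

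RefSeq (assembly GRCm38.p6) gave 135 protein-coding autosomal genes that the same pattern selects or that were members under an old symbol. The latter are there only because they had a region, which can raise the family's share. Of the 135, 63.0% had a region in Pemt-/- and 69.6% in Pemt+/+. Ccl28, placed by mm9 on an unlocalised part of chromosome 13, was counted, and Cxcl11, annotated as a transcribed pseudogene, was not. Over all 20661 protein-coding autosomal genes the shares were 60.6% and 65.2%. The family was thus listed about as often as other genes. The 37 coding genes without any region included Ccr1 and Cxcr6, receptors of inflammatory leukocytes, the ligands Ccl7, Ccl8, Ccl12 and Cxcl1, and the interleukin-1 family genes Il1rn, the natural antagonist of interleukin-1, and Il33, an alarmin. Il4 and Il13, the ligands of type 2 immunity, also had none.

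**Figure D1:**
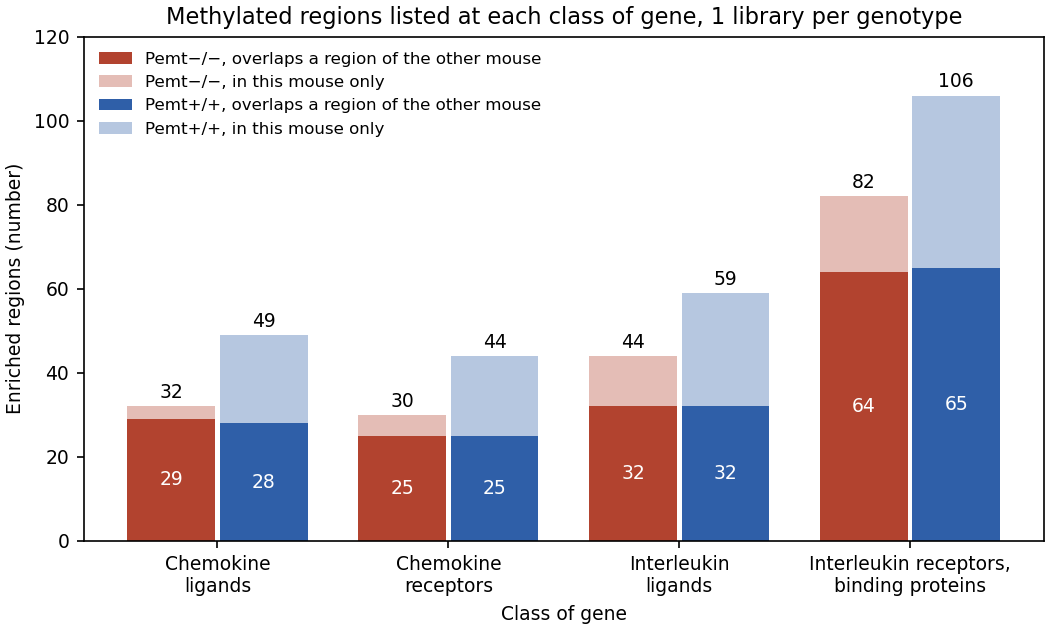
Number of enriched regions (vertical axis) listed at each class of gene (horizontal axis) in the Pemt-/- and the Pemt+/+ mouse, 1 library each. Solid bars are regions that overlap a region of the other mouse and pale bars those found in 1 mouse only; in every class the pale part is larger in Pemt+/+.

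Of the 188 regions in Pemt-/-, 150 (79.8%, Wilson 95% interval 73.5 to 84.9) overlapped a region of Pemt+/+ by at least 1 bp, and over all autosomal regions the share was 83.3%. Of the 258 regions in Pemt+/+, 150 (58.1%, 52.0 to 64.0) overlapped one of Pemt-/-, against 61.7% over all. The intervals cover counting error only and include both backgrounds. In Pemt-/- the overlapping share was 90.6% for chemokine ligands (29 of 32 regions), 83.3% for chemokine receptors (25 of 30), 72.7% for interleukin ligands (32 of 44) and 78.0% for interleukin receptors. In Pemt+/+ it lay between 54.2% and 61.3% in the 4 classes. The plot of regions by class shows the same in numbers, with 3 unshared regions at chemokine ligands in Pemt-/- and 21 in Pemt+/+. At least 1 unshared region was found at 34 of the 85 genes in Pemt-/- (40.0%, background 45.1%) and at 68 of the 94 in Pemt+/+ (72.3%, background 76.0%). Unshared regions held fewer tags, with a median of 10 in Pemt-/- and 12 in Pemt+/+, against 13.5 and 21 in the shared ones.

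As a class, interleukin receptors and binding proteins had the most regions, 82 in Pemt-/- and 106 in Pemt+/+, not scaled by gene length. Il31ra is 58.8 kb long, Il20ra 48.4 and Il6st 42.8, against a family median of 10.6 kb in Pemt-/-. Per 100 kb of gene with 10 kb on each side, Il31ra had 10.2 regions in Pemt-/- and 14.0 in Pemt+/+. Some shorter genes had more, such as Ccr10 with 13.4 and 22.3. Il31ra, a receptor chain for interleukin-31, had 8 regions with 186 tags in Pemt-/- and 11 with 275 in Pemt+/+. Its neighbour on chromosome 13, Il6st, encodes gp130, the signalling chain shared by the receptors of interleukin-6 and its relatives, and had 7 regions with 141 tags and 9 with 229. All 7 regions of Il6st and all 8 of Il31ra in Pemt-/- overlapped a region of Pemt+/+. In Il6st the highest region lay inside the gene at chr13:113273764-113274153, with 40 tags against 52 in its counterpart. In Il31ra the highest lay inside at chr13:113337179-113337835, with 58 tags against 76. In Pemt+/+ a further 2 regions of Il6st, with 22 and 17 tags, and 3 of Il31ra, with 9, 12 and 14, overlapped none of Pemt-/-. Il20ra and Il20rb encode both chains of a receptor for interleukins 19, 20 and 24. Il20ra had 6 regions with 142 tags in Pemt-/- and 8 with 186 in Pemt+/+, and Il20rb 6 regions in each mouse, with 63 and 118 tags. Il6ra, the chain that binds interleukin-6 itself, had 2 regions with 30 tags in Pemt-/- and 4 with 60 in Pemt+/+, all inside the gene.

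Among interleukin ligands, Il34, which encodes a ligand of the macrophage receptor Csf1r, had 6 regions with 104 tags in Pemt-/- and 9 with 156 in Pemt+/+. Il17d, an interleukin-17 family ligand, had 4 with 73 and 5 with 105. Il1f8, which encodes interleukin-36 beta, had 3 with 68 and 3 with 99. Il17b, another interleukin-17 family ligand, had 3 with 44 and 4 with 88. Its overlapping downstream regions of 22 tags in Pemt-/- and 44 in Pemt+/+ lay inside the gene Pcyox1l. So did a further one of 22 tags in Pemt+/+. In these 4 genes Pemt+/+ held more tags. Il1b, a main interleukin of inflammation, had none in Pemt-/- and 1 with 26 tags in Pemt+/+. Il10, an anti-inflammatory interleukin, had 2 with 22 tags and 3 with 47. Il18, which is made as a precursor and released by inflammasomes, had 3 with 55 and 2 with 46, and was thus a gene with more tags in Pemt-/-. Il17a had 1 region in each mouse, with 8 and 16 tags.

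Among chemokine ligands, Cxcl12, the ligand of Cxcr4, had 2 regions with 41 tags in Pemt-/- and 3 with 76 in Pemt+/+. Cxcl14 had 2 with 31 and 3 with 84, Cxcl11 had 3 with 56 and 3 with 61, and Cxcl5, a ligand that draws neutrophils, had 3 with 49 and 3 with 65. Cxcl10, an interferon-induced ligand of Cxcr3, had a single region in each mouse, with 26 tags and 58. It lay at chr5:92768195-92768514 in Pemt-/-, downstream of Cxcl10 and inside the neighbouring gene Art3, so it cannot be assigned to Cxcl10 alone. The 3 regions of Cxcl11 in each mouse also lay inside Art3. One of 22 tags in Pemt-/-, 9972 bp upstream, overlapped a Pemt+/+ region of 36 tags that was not listed at Cxcl11. The sums of Cxcl11 thus compare partly different places. Ccl2, the main attractant of monocytes, had 1 region 6165 bp upstream in each mouse, with 9 and 15 tags. Ccl5 had 2 with 21 and 3 with 52, and Cx3cl1, the ligand of Cx3cr1, had 2 with 37 and 3 with 60.

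Among chemokine receptors, Ccr4, a receptor for Ccl17 and Ccl22, had 3 regions with 50 tags in Pemt-/- and 4 with 125 in Pemt+/+. Ccr7, which guides cells to lymph nodes, had 2 with 48 and 4 with 107. Cxcr7, an atypical receptor that takes up Cxcl12, had 1 with 28 and 4 with 105. Ccr6 had 3 with 38 and 4 with 89. These 4 genes all had more regions and more tags in Pemt+/+. Ccr2, the receptor for Ccl2 on monocytes, had 1 region in each mouse, with 9 and 11 tags. Cx3cr1, found on monocytes and tissue macrophages, had 4 with 49 and 3 with 73, where a single region of 51 tags in Pemt+/+ spanned regions of 20 and 12 tags in Pemt-/-. Cxcr4, the receptor of Cxcl12, had none in Pemt-/- and 2 of 15 tags each in Pemt+/+, 1 inside the gene and 1 at 4888 bp upstream.

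**Figure D2:**
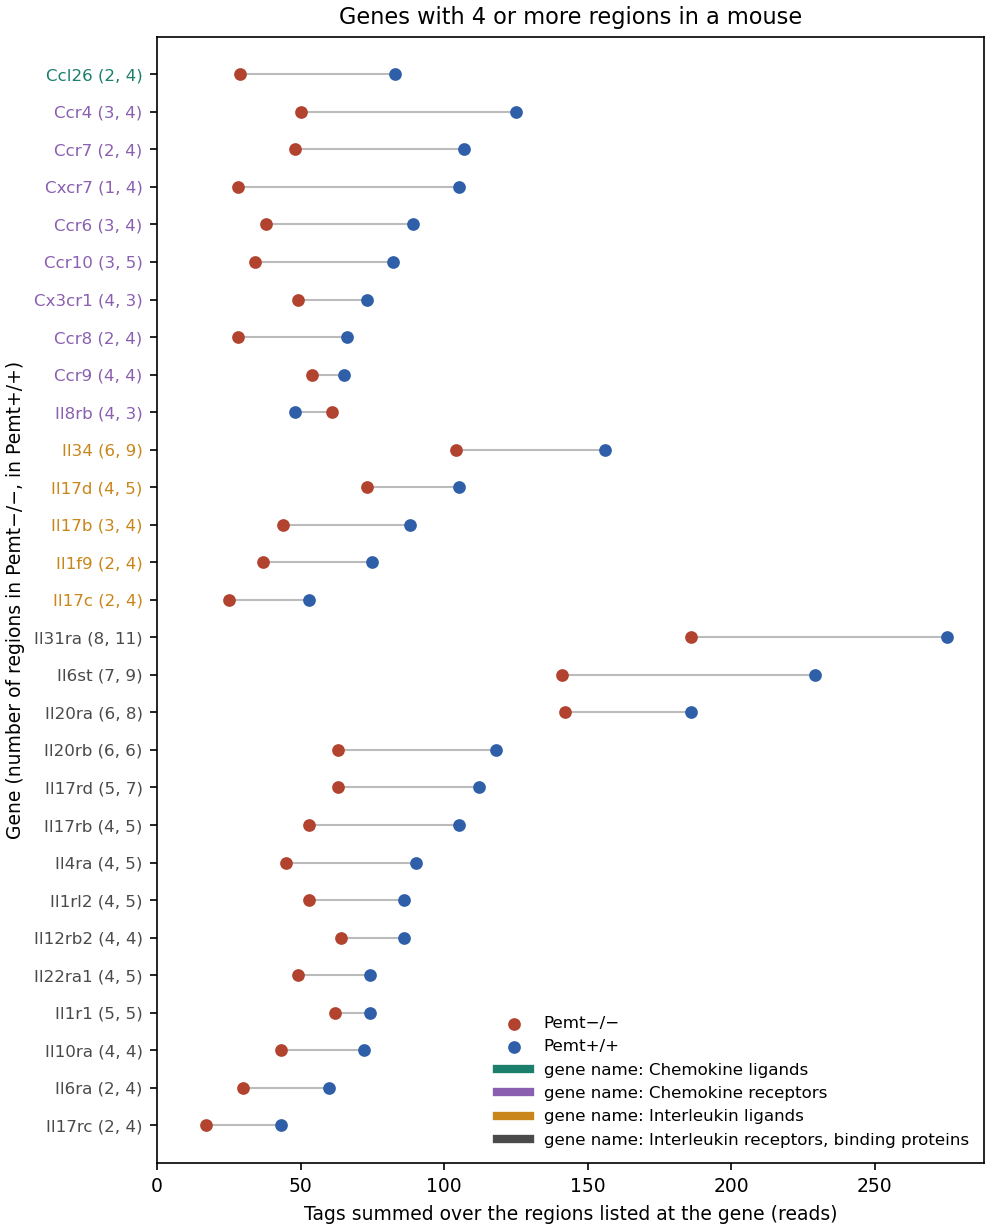
Tags summed over the regions listed at a gene (horizontal axis, reads) for each gene with 4 or more regions in a mouse (vertical axis, with the number of regions in Pemt-/- and Pemt+/+ in brackets, names coloured by class). Red points are Pemt-/- and blue points Pemt+/+, 1 library each; Il31ra (186 and 275 tags) lies farthest right, and Il8rb (61 and 48) is the gene shown with more tags in Pemt-/-.

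For the 79 genes that were listed in both livers and held 20 or more tags in all, the share of the tags that came from Pemt-/- had a median of 37.4%, against 36.1% over 12354 genes. It ranged from 15.4% to 67.9%. The share sums the regions listed in each mouse, shared or not, so it can compare different places of a gene. The highest shares were those of Il22ra2 (19 tags in Pemt-/- and 9 in Pemt+/+, 67.9%), which encodes a secreted protein that binds interleukin-22, Il3 (21 and 10, 67.7%), Il8rb (61 and 48, 56.0%) and Il18 (55 and 46, 54.5%). The regions of Il22ra2 lay 4278 bp apart and did not overlap, and the only paired region of Il18 held 28 and 34 tags, so its higher sum came from unshared regions. This paired region lay upstream of Il18 and inside a gene outside the family, so it cannot be assigned to Il18 alone. The paired region of Il3 held 12 and 10 tags, and the 3 of Il8rb 17 and 15, 14 and 15, and 19 and 18. The lowest were those of Ccl25 (8 and 44, 15.4%), Cxcl2 (8 and 35, 18.6%), Cxcr7 (28 and 105, 21.1%) and Il9 (11 and 41, 21.2%). The plot of tags by gene shows how rarely the Pemt-/- point lay to the right.

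To compare overlapping places in both livers, regions that overlapped 1 to 1 by at least 1 bp were paired. The ratio of their tags, Pemt-/- to Pemt+/+, was taken. The regions of a pair can differ in length. The ratio was not scaled by length, and the part of length in it was not tested. Over 75326 autosomal pairs with at least 20 tags together the median ratio was 0.667. This ratio holds any difference in depth between the libraries and any difference in methylation over the whole genome, which cannot be told apart here. Each pair was read against it, so a difference over the whole genome does not show in the pairs. The 143 pairs of the family had a median of 0.690, with the middle 50% between 0.545 and 0.846, against 0.538 to 0.833 over all pairs. In all, the family's pairs held 2360 tags in Pemt-/- and 3446 in Pemt+/+, so that 40.6% came from Pemt-/-, against 39.7% over all pairs. By class the medians were 0.670 for chemokine ligands (28 pairs), 0.75 for chemokine receptors (21), 0.688 for interleukin ligands (31) and 0.69 for interleukin receptors (63).

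The ratio was at least 1.5 times above the median of all pairs in 21 of the 143 pairs (14.7%), against 14.2% of all pairs, and at least 1.5 times below it in 11 (7.69%), against 10.4%. These shares lie near the background. With the upper 50% of each list by score, 11 of 70 pairs (15.7%) lay above, against 8.77% of all pairs, and 4 (5.71%) below, against 7.87%. Of the 21 pairs, 4 stood exactly on the limit with equal tags in both mice, at Il10, Il19, Il34 and Ccr9. More tags in Pemt-/- than in Pemt+/+ were found in 17 pairs (11.9%, against 10.3% of all pairs).

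The 4 pairs farthest above the median all lay inside interleukin receptor genes. In Il20ra the region at chr10:19446349-19446864 held 25 tags in Pemt-/- and 14 in Pemt+/+, a ratio of 1.79, which is 2.68 times the median. Of these tags 64.1% came from Pemt-/- (exact 95% interval 47.2 to 78.8, counting error only). The other regions of Il20ra did not all share this. A pair at chr10:19456037-19456402 held 41 and 36 tags, 1.71 times the median ratio and so past the fold in the same direction. One upstream at chr10:19427463-19428187 held 35 and 62, 0.847 times the median. A region of 19 tags at chr10:19437926-19438217 was found in Pemt+/+ only. In Il31ra the region at chr13:113368145-113368882 held 33 and 20 tags, a ratio of 1.65 (62.3% of the tags from Pemt-/-, 47.9 to 75.2). The other 7 pairs of the gene each had more tags in Pemt+/+. Read against the median ratio they lay on both sides of it, at 0.774 to 1.37 times, within the fold. The remaining pairs were in neighbours on chromosome 6 that encode receptor chains for interleukins 12 and 23. Il12rb2 held 19 and 12 tags at chr6:67249574-67250290, a ratio of 1.58. Il23r held 19 and 15 at chr6:67420051-67420514, a ratio of 1.27. The Il20ra region was 516 bp long in Pemt-/- and 481 in Pemt+/+, and the Il31ra region 738 and 535. That of Il12rb2 was 717 and 276 bp long, and that of Il23r 464 and 334.

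The 4 pairs farthest below were at a T cell cytokine, an eosinophil attractant and 2 receptors. In Il21 the region at chr3:37124024-37124362, inside the gene, held 12 tags in Pemt-/- and 39 in Pemt+/+, a ratio of 0.308, of which 23.5% came from Pemt-/- (12.8 to 37.5). Between Ccl24 and Ccl26, at chr5:136042879-136043356, there were 9 and 29 tags, a ratio of 0.31. In Il4ra, which takes part in both interleukin-4 and interleukin-13 signalling, the region at chr7:132714983-132715580 held 11 and 35, a ratio of 0.314, whereas a downstream pair of the same gene held 17 and 18. In Il10ra, at chr9:45072765-45073095, there were 8 and 21 tags, a ratio of 0.381. The Il21 region was 339 bp long in Pemt-/- and 870 in Pemt+/+, and this Il4ra region 598 and 889. That between Ccl24 and Ccl26 was 478 and 494 bp long, and that of Il10ra 331 and 288. Il1rl2 held a pair past the fold each way, with 20 and 16 tags downstream and 10 and 24 inside the gene. The lists do not say whether a region inside a gene is exonic or intronic.

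**Figure D3:**
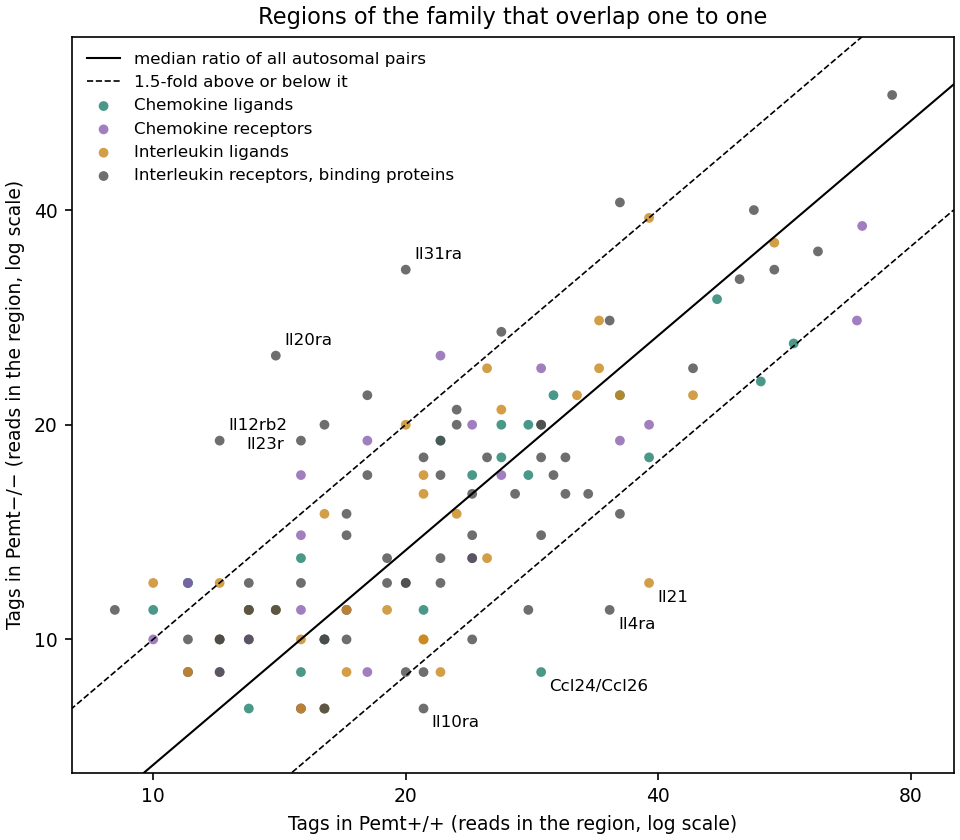
Tags of the 143 overlapping region pairs of the family in Pemt+/+ (horizontal axis, reads, log scale) and Pemt-/- (vertical axis, reads, log scale), coloured by class, 1 library each. The solid line is the median ratio of all autosomal pairs (0.667) and the dashed lines lie 1.5-fold above and below it; 21 pairs lie on or above the upper line and 11 on or below the lower one.

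Several members lie side by side and were read as clusters, taken as at least 3 genes with no gap between regions above 500 kb. The interleukin-1 receptor cluster on chromosome 1 (Il1r1, Il1r2, Il1rl1, Il1rl2, Il18rap) had 8 pairs with 115 tags in Pemt-/- and 144 in Pemt+/+, so that 44.4% came from Pemt-/- (38.3 to 50.7). The Il10, Il19 and Il24 cluster on the same chromosome had 4 pairs with 51 and 75 tags (40.5%). The interleukin-36 genes on chromosome 2 (Il1f6, Il1f8, Il1f9) had 5 pairs with 105 and 149 (41.3%). On chromosome 5 the neutrophil-attracting ligands Cxcl2, Cxcl3, Cxcl5 and Cxcl15 had 5 pairs with 68 and 95 (41.7%), and the interferon-induced Cxcl9, Cxcl10 and Cxcl11 had 4 pairs with 82 and 135 (37.8%). The receptor cluster of Ccr2, Ccr3 and Ccr9 on chromosome 9 had 3 pairs with 43 and 50 (46.2%). The Ccl3, Ccl4, Ccl5, Ccl6 and Ccl9 cluster on chromosome 11 had 6 pairs with 63 and 85 (42.6%). The intervals of all 7 clusters include the 39.7% of all pairs.

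No region lay over the 5′ end of a transcript of the family. This was 0 of 98 genes in either mouse, which allows a share of up to 3.06%, and over all autosomal genes the share was 2.67%, so the count was not distinguishable from the background. Separately, the shares over all genes were 1.76% in Pemt-/- and 2.42% in Pemt+/+. Regions lay over a 3′ end at Il8ra, Il6st and Ccr6 in both mice, at Il9r in Pemt-/- only, and at Il1f9 and Il17c in Pemt+/+ only.

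Fewer of the family's regions lay inside their gene than in the lists at large. In Pemt-/- 84 of 188 regions (44.7%, 37.8 to 51.8) lay inside a member, 49 (26.1%) upstream and 51 (27.1%) downstream. In Pemt+/+ 111 of 258 (43.0%, 37.1 to 49.1) lay inside, 73 (28.3%) upstream and 69 (26.7%) downstream. Counted for every pair of a region and a gene, 43.5% and 42.0% lay inside, against 71.3% and 70.8% over all genes. In the same count 25.9% and 28.4% lay upstream, against 13.0% and 13.3%, and 28.5% and 27.7% downstream, against 14.0% and 14.4%. The genes of the family are short, with a median length of 10.6 kb among those listed in Pemt-/- against 23.8 kb over all, and 10.4 kb against 22.1 kb in Pemt+/+. The part of gene length in these positions was not tested. Per 100 kb of gene with 10 kb on each side, the family had 5.71 regions in Pemt-/- and 7.21 in Pemt+/+, against 5.15 and 6.82 over all genes, all pooled. The median of the genes in Pemt-/- went the other way, with 4.64 against 5.2, and in Pemt+/+ it was 7.67 against 7.2. Of the family's regions 24 in Pemt-/- and 32 in Pemt+/+ (12.8% and 12.4%) lay inside a gene outside the family.

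Close to a start, 3 regions in Pemt-/- and 7 in Pemt+/+ lay within 1 kb upstream of a transcript as their nearest place. Counted for every pair of a region and a gene, this was 1.55% (0.53 to 4.47) in Pemt-/-, against 0.856% over all genes. In Pemt+/+ it was 2.65% (1.29 to 5.37), against 0.815%. Upstream pairs at any distance were also more frequent in the family, so these shares do not single out the starts. Among upstream pairs alone, those within 1 kb were 3 of 50 in Pemt-/-, against 450 of 6835 over all genes. In Pemt+/+ they were 7 of 75, against 587 of 9562. The nearest regions were found in Pemt+/+ only. One lay 155 bp upstream of Ccl25, a ligand of Ccr9, with 18 tags. Another lay 216 bp upstream of Il1rl2, the interleukin-36 receptor, with 15 tags, and is also downstream of Il1r1. In Pemt+/+ only there were also a region 644 bp upstream of Ccr8, with 14 tags, one 802 bp upstream of Cxcr7, with 9 tags, and one inside a transcript of Ccl27a and 92 bp upstream of another, with 9 tags. The other genes had a region there in both mice. Il17a, the T cell cytokine interleukin-17A, had a region of 8 tags 328 bp upstream in Pemt-/- and one of 16 tags 335 bp upstream in Pemt+/+. Il2rb, a chain of the interleukin-2 and interleukin-15 receptors, had 10 tags at 555 bp and 16 at 569 bp. Il17d had 21 tags at 662 bp and 26 at 836 bp. In all 3 genes Pemt+/+ held more tags. Read against the median ratio of all pairs, the values were 0.75 for Il17a, 0.938 for Il2rb and 1.21 for Il17d.

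**Figure D4:**
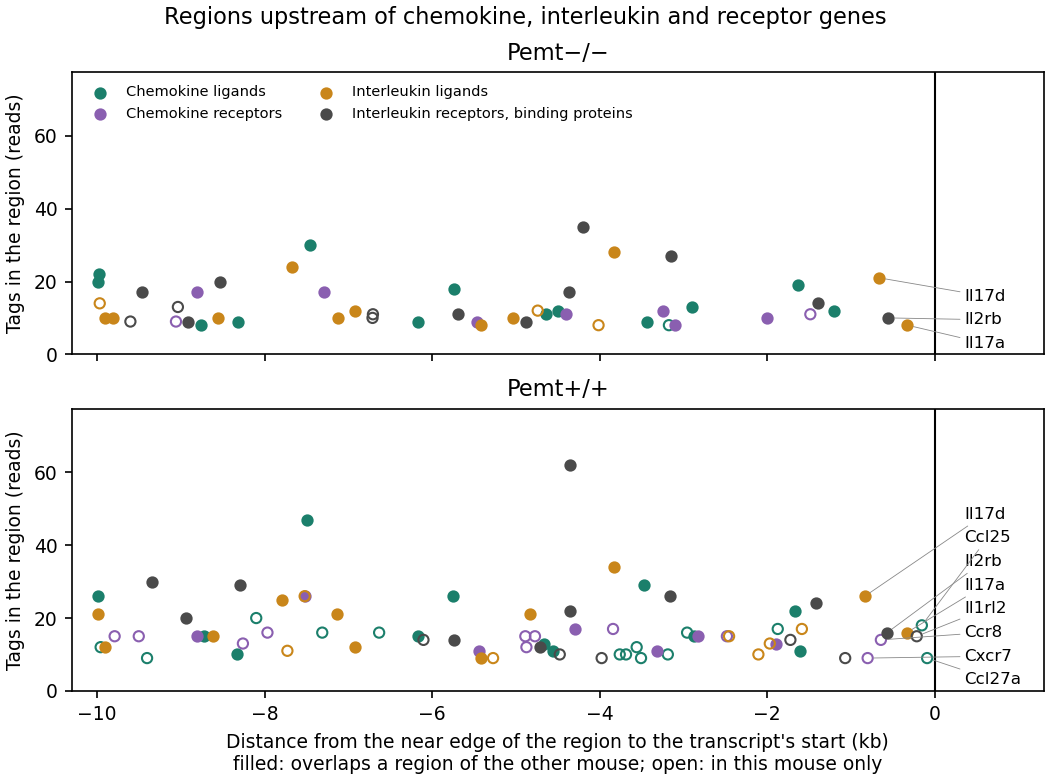
Tags (vertical axis, reads) and distance to the transcript's start (horizontal axis, kb) of the regions upstream of chemokine, interleukin and receptor genes, coloured by class, with Pemt-/- above and Pemt+/+ below, 1 library each. Filled points overlap a region of the other mouse and open points do not; named genes have a region within 1 kb, and the 5 open points within 1 kb are all in Pemt+/+.

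The promoters of the genes with a region within 1 kb upstream are shown to set the CG pairs, the targets of methylation in the captured DNA, beside these values, for genes with a single entry in the RefSeq promoter table. Those of Il6st, the gene with many regions in both mice, and of Il6 follow for comparison. Each sequence runs from 250 bases before to 50 after the start in the assembly GRCm38.p6, whose coordinates differ from those of the regions, and CG pairs are in capitals.
Il17a, chr1:20730655-20730954, plus strand: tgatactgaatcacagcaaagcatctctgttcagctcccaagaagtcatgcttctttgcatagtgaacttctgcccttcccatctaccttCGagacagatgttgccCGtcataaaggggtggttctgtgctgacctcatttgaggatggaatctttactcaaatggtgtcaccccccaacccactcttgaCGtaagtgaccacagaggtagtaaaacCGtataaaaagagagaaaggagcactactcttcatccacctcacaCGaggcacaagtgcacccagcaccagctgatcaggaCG
Il1rl2, chr1:40324339-40324638, plus strand: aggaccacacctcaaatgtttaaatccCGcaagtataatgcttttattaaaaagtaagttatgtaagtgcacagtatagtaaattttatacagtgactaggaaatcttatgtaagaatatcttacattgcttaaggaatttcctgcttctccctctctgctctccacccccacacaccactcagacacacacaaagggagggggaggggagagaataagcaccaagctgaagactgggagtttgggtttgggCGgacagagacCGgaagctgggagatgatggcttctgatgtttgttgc
Ccr8, chr9:120091883-120092182, plus strand: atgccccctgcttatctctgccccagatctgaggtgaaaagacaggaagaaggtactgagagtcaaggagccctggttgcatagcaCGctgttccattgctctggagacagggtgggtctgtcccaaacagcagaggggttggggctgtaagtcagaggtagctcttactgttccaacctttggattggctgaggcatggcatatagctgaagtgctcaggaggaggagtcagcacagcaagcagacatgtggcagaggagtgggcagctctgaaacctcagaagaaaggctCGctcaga
Il17d, chr14:57524579-57524878, plus strand: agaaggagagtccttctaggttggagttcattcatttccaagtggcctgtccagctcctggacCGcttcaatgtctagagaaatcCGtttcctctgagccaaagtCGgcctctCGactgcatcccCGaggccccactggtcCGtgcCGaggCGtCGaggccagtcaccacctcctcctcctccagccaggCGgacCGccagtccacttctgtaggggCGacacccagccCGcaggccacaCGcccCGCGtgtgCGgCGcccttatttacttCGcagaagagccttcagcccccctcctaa
Cxcr7, chr1:90203730-90204029, plus strand: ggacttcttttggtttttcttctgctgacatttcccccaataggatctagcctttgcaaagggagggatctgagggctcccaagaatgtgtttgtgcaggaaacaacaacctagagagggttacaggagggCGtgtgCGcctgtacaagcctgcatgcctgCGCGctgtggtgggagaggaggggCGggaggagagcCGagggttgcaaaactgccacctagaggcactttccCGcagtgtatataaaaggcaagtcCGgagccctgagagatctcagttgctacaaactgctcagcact
Il6st, chr13:112463820-112464119, plus strand: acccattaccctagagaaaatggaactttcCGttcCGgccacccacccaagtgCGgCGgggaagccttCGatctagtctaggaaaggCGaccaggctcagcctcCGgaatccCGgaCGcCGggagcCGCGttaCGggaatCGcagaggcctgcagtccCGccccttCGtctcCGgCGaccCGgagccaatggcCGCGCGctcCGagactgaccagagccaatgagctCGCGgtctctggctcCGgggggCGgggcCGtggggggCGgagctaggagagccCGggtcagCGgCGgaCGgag
Il6, chr5:30012864-30013163, plus strand: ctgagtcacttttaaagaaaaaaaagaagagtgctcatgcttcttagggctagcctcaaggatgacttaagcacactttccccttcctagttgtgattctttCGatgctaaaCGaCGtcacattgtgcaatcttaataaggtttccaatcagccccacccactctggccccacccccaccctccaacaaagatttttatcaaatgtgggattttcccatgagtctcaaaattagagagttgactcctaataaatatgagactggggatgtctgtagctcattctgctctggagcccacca
The number of CG pairs was 6 for Il17a, 3 for Il1rl2, 2 for Ccr8, 19 for Il17d, 8 for Cxcr7, 33 for Il6st and 3 for Il6. Il6st thus had a CG-rich promoter with no region over it, and its nearest upstream region lay 3155 bp away in Pemt-/- and 3167 bp in Pemt+/+. The search was for the letters CG, which read the same on both strands, and 94.6% of the 32851 promoters of the table hold at least 1. Of the 98 genes 70 (71.4%) had an entry, which is under 80%, so a comparison of the family's CG pairs with those of all genes is void and is not given. Among the 70 genes the number ran from 1 to 35, with a median of 5.

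Among regions found in 1 mouse only, the one with most tags was at a chemokine receptor. In Pemt+/+ a region of 49 tags lay inside Ccr4 at chr9:114400893-114401576, and the nearest region of Pemt-/- was 655 bp away. A region of 26 tags lay 7522 bp upstream of Il1b at chr2:129204378-129205222. Another of 26 tags lay 8036 bp downstream of Ccl22, a ligand of Ccr4, at chr8:97283324-97283615, and one of 23 tags lay at Il20rb, at chr9:100363667-100364236. In Pemt-/- a region of 26 tags lay 2493 bp downstream of Il34 and inside the gene Mtss1l, at chr8:113262157-113263236. A region of 19 tags lay inside Il22ra2 at chr10:19351106-19351603, one of 17 tags inside Il18 at chr9:50385756-50386145, and one of 15 tags at Il17rd, an inhibitory member of the interleukin-17 receptor family, at chr14:27904862-27905459. These are 4 regions of each mouse, chosen for their tags. The background of regions found in 1 mouse only was 16.7% in Pemt-/- and 38.3% in Pemt+/+.

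In the shorter lists, whose making is not given in the sources used here, the family had 4 genes in Pemt-/- (4.71% of its 85 genes, background 9.16%) and 11 in Pemt+/+ (11.7% of its 94, background 19.5%). Counted by region the shares were 2.13% against 2.12% of all regions in Pemt-/-, and 4.26% against 4.57% in Pemt+/+. The genes in Pemt-/- were Il15, which encodes a cytokine of natural killer cells, Il1r1, the interleukin-1 receptor, Il22ra2 and Il31ra. Their deposited false discovery rate was 100%. Those in Pemt+/+ were Ccl22, Cxcl2, Cx3cl1, Ccr4, Il10, Il21, Il1f9, Il1rl2, Il3ra, Il12rb1 and Il20ra, with a false discovery rate from 30.32% to 36.36%. The regions of Il31ra, Il21 and Il1rl2 overlapped a region of the other mouse, with 33 against 20 tags for Il31ra, 12 against 39 for Il21 and 10 against 24 for Il1rl2, Pemt-/- given before Pemt+/+. The regions of the other 12 genes overlapped none.

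Other genes of these pathways were counted by the same rules. Of 58 symbols of signalling partners (Jak and Stat proteins, their inhibitors, the adaptors of interleukin-1 receptors, NF-kappaB subunits and G protein partners of chemokine receptors), 39 had a region. There were 138 regions in Pemt-/- and 194 in Pemt+/+, with none over a 5′ end. Their 108 pairs had a median ratio of 0.65, with 16 (14.8%) at least 1.5 times above the median of all pairs and 8 (7.41%) at least 1.5 times below it, near the 14.2% and 10.4% of all pairs. Socs3, which is induced by interleukin-6 and inhibits gp130, had 1 region in each mouse, with 8 and 15 tags, and Stat3 had 3 with 42 tags and 5 with 94. The labelled tissue could not be checked by expression, since no RNA was measured here. Of the hepatocyte markers Alb, Apoa2, Cps1, Tat and Ttr had regions and none lay over a 5′ end, as for the macrophage markers, while of the T and B cell markers Cd79b had one over its 5′ end in Pemt+/+.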

How the data were processed

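Liver DNA of 1 Pemt-/- and 1 Pemt+/+ mouse fed HFHS chow was enriched for methylated DNA, prepared with a ChIP library kit and sequenced. The sample records also mention bisulphite conversion before capture, which the Methods do not. The submitters' processing notes name CASAVA 1.8.2, Bowtie and the build mm9. The peak caller, its settings, its control and the handling of duplicate and multiply mapping reads are not given in the sources used here, and each of them changes tag numbers. Regions at near-identical copies (Il28a and Il28b, Ccl27a) are therefore uncertain.

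The authors deposited 2 region lists per mouse, with raw read counts (tags) per region. The deposited score is 10 times the −log10 p-value, at least 50 in every list. The deposited fold enrichment is a ratio over background, and the deposited FDR is a percent. The lists lack library totals, so ratios were read against the median of all pairs. This median stands in for a scaling by depth and also takes out any difference over the whole genome. No test was run. Relations to transcripts within 10 kb were taken from the lists.

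Each region was counted once. Regions of both longer lists were shared if they overlapped by at least 1 bp. Overlaps of 1 to 1 with at least 20 tags together were compared by their tag ratio, without scaling by region length. A pair counted as past the fold at 1.5 times above or below the median ratio. Shares have Wilson intervals, and shares of tags exact binomial intervals, at 95%. Reads carry no molecular identifiers, so the intervals cover counting error only. The family and the gene lists were chosen with earlier results of these data known. The named genes are, by a rule, the 4 genes of each class with most tags, any gene with a region over a 5′ end, the 4 pairs farthest above and below the median, genes in a shorter list, the 4 unshared regions of each mouse with most tags, and 20 genes known from liver inflammation or the study, of which 1 is not reported here. Values of other genes are given where counts or gene-wise tag shares single them out, chosen after their values were seen. Names, lengths and promoters came from RefSeq (GRCm38.p6). Calculations used Python 3.11.15 with pandas 2.3.3, numpy 2.4.6, scipy 1.17.1 and matplotlib 3.10.9, and the overlap and ratio steps were tested on simulated data. Alternatives were the upper 50% of each list by score, lists of equal length, overlaps covering 50% or more of each region, regions inside or over an end of a member only, no minimum of tags, a fold of 2, scaling by summed tags, and a region counted for every member. Leaving out regions inside other genes was added after seeing the data.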

Additional observations from a re-analysis of the deposited data

How the results depend on the processing

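No paired analysis was possible because there was 1 library per genotype. With regions inside or over an end of a member only, 44 genes in Pemt-/- and 53 in Pemt+/+ had a region. An unshared one was found at 16 (36.4%, against 43.1% of all genes) and 33 (62.3%, against 70.7%). Of 64 pairs 11 (17.2%) lay past the fold above and 7 (10.9%) below, against 14.7% and 9.9% of all pairs inside or over an end of a gene. In the shorter Pemt+/+ list there were 7 genes. These counts fall because fewer regions enter. The median share of tags per gene rose to 41.6%, against 36.7% over all genes. With the upper 50% of each list by score, 18 genes in Pemt-/- (31.6%, against 42.0% of all genes) had an unshared region. In Pemt+/+ 44 had one (63.8%, against 68.0%). Of 70 pairs 11 (15.7%) lay past the fold above and 4 (5.71%) below, against 8.77% and 7.87% of all pairs. With lists of equal length, 44 genes in Pemt+/+ had an unshared region (54.3%, against 60.9% of all genes). The shared part was 68.1% in Pemt-/- and 68.9% in Pemt+/+ (all regions 72.2% and 72.1%). The median share of tags per gene was 40.7% (all genes 40.0%). Overlaps are mostly 1 to 1, so lists of equal length give nearly equal shared parts in both mice by construction. No conclusion about the gap between the mice is drawn from this. With a fold of 2, 3 pairs (2.1%) lay above and 3 below, against 2.71% and 1.96% of all pairs. Beyond what the construction of an alternative shows, the cause was not tested. The other 41 values stayed within their interval or within 1.5 times of the reported count, and none reversed. Among them the median ratio of the family's pairs lay between 0.689 and 0.757, and no gene had a region over a 5′ end under the 2 alternatives tried for it. The depth of these lists limits what a missing region can show, since a place with fewer than 8 tags could not appear.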

Other observations

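Of the same name pattern, 3 genes lay outside the autosomes and were kept out of the family. Il1rapl2, an interleukin-1 receptor accessory protein-like gene on the X chromosome, had 10 regions with 118 tags in Pemt-/- and 13 with 166 in Pemt+/+. Il2rg, also on the X chromosome, encodes the common gamma chain of several interleukin receptors and had 2 regions in each mouse, with 24 and 30 tags. Ccl28, which mm9 places on an unlocalised part of chromosome 13, had 2 regions in each mouse, with 29 and 53 tags.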
